A study of Mus musculus with 5 samples.

Results

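A set of 177 genes had a level in the deposited TPM table of this ribosome profiling series and no row in its count table. They were selected on their measured level at 0 min: members are the rows of the TPM table whose name is not a symbol of the count table and whose TPM (a level per length, scaled so that all libraries have close to equal totals) was at least 50 at 0 min, with mitochondrially encoded genes and Mbp left out by name. The TPM table holds 18527 rows, of which 10329 are also in the count table and 8198 are not. The 0 min level chose the genes, so their levels at 0 min and every ratio to 0 min are a description and carry no test.

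Footprints are the mRNA fragments that ribosomes protect from nuclease. They came from hippocampal-cortical slices held in 20 µM homoharringtonine for 5, 10, 30 or 60 min, and from slices at 0 min. The donors were C57BL/6N males of wild type genotype, aged 28 to 35 days. All slices shared the same preparation, 400 µm sections recovered for 3 to 4 h, and each pool joined 10 slices of 2 to 3 mice, with no further treatment or mutation in any group. Each time is 1 library, so no time has a replicate, and time on the drug cannot be told apart from the pool of slices. The vehicle was 0.05% DMSO, and the labels do not say whether the 0 min slices received it. In bulk tissue, fewer cells of a type and fewer footprints per cell cannot be told apart. Total counts in the count table were 7155147, 2787749, 2022152, 1504748 and 1346175 in order of time. Genes typical of the tissue were present at every time: the neuronal kinase gene Camk2a had 2675 to 3235 TPM and the astrocyte glutamate transporter gene Slc1a2 had 1976 to 2622 TPM. The liver gene Alb was listed at 0 in every library, and so was the synaptic gene Snap25. Of 32 small GTPase genes looked up, 8 had a row in the TPM table, and 4 of these were also at 0 throughout. The cause was not tested, and the 0 of Snap25 is not read as a lack of translation.

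Homoharringtonine stops ribosomes at the start of a coding sequence, while ribosomes farther along continue and leave at the stop codon. An mRNA with a short coding sequence is therefore cleared early and one with a long coding sequence late. TPM is a share of all footprints in a library, so a gene can have a higher TPM after the drug while it holds fewer footprints. Mitochondrial ribosomes are not its target, and the summed TPM of the 9 mitochondrially encoded rows was 3.42, 3.50, 4.09 and 4.92 times its 0 min value at 5, 10, 30 and 60 min. Those factors are called the mitochondrial factors here.

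The names of the 177 genes are of several kinds. Of these, 159 matched a symbol of the GRCm38.p6 annotation (RefSeq, the assembly behind mm10), 3 matched through a synonym and 15 did not match. The matched genes comprise 159 protein-coding genes and 3 pseudogenes. None of the 162 was found in the count table under a synonym, its gene ID or its transcript. Several of the 177 genes are relatives of each other, among them 5 adhesion G protein-coupled receptors (Adgrb1, Adgrb3, Adgrg1, Adgrl1, Adgrl3), 7 lipid phosphate phosphatases and plasticity-related proteins (Plpp1, Plpp3, Plpp7, Plppr2 to Plppr5) and 3 band 4.1 proteins (Epb41l1, Epb41l2, Epb41l3). Genes at the edge of the limit were Gm26558, Mrpl48 and Pdgfa, each with 50 TPM at 0 min. Just outside it were AC113124.1 and Tmem121b with 49 TPM and Adgrb2, another adhesion receptor, with 48 TPM.

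Of 543 genes in 22 lists of mostly small proteins, such as ribosomal proteins, respiratory chain subunits, calcium sensors, chemokines and markers of glia and blood, 129 had a row in the TPM table, 88 were in the count table and 11 are among the 177. These 11 include the large subunit ribosomal protein Rpl13, the small subunit scaffold Rack1, the actin-severing protein Cfl1 and the neuropeptide precursor Pnoc. No member came from the lists of oligodendrocyte, astrocyte, microglial or blood and vessel genes, nor from the chemokine and cytokine list. Mbp is on the oligodendrocyte list and was left out by name, so the rule itself bears on that absence.

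The number of reads behind a TPM could be read for part of the genes. Genes present in both tables served to estimate what 1 read was worth. On a coding sequence of 627 nt it was worth 66.1, 229, 281, 310 and 334 TPM in order of time. The 0 min value at 627 nt rests on 1 gene. Values at later times are the 0 min value times a depth factor, taken from genes with at least 200 counts. On 636 nt 1 read was worth 83.6 TPM at 60 min, against 16.5 TPM at 0 min. On 660 nt it was worth 18.3 TPM at 60 min, against 3.61 TPM at 0 min. The limit of 50 TPM is thus less than a single read on the shortest of these coding sequences. All 5 values of 35 of the 177 genes (19.8%) were whole multiples of 1 such read on a coding sequence of at most 660 nt, within 0.5 TPM plus 0.4% of the value. The same held for 1.78% of all 3436 rows with at least 50 TPM at 0 min. Among genes of known length in both tables, which also set the worth of 1 read, the match returned the deposited 0 min count in 21 of 21 cases between 627 and 660 nt, and it arose in 5 of 3034 genes over 700 nt. Of 91 genes of known length in that range only those 21 matched. The match takes the shortest coding sequence that suits, so all read numbers given here and below are the fewest possible.

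For these 35 whole-read genes the fewest reads that give their values were 1 to 55 at 0 min, with a median of 7. Their medians were 1 read at 5, 10, 30 and 60 min, and 16, 14, 14 and 13 of the 35 genes had no read at these times. Summed over the 35 genes there were 344, 49, 80, 94 and 91 reads in order of time. Crip2, a LIM domain protein, had 330, 0, 0, 310 and 0 TPM in time order, which is 5, 0, 0, 1 and 0 reads. Mras, a small GTPase of the Ras family, had 593, 229, 0, 931 and 1002 TPM, or 9, 1, 0, 3 and 3 reads. Its highest TPM, at 60 min, rests on 3 reads, against 9 reads at 0 min. Of the 177 genes 15 were listed at 0 at 60 min, and their order in the ratio to 0 min is set by the pseudocount and the 0 min level alone. The naming rule takes 12 of them, with ties broken by name, and 11 of them are whole-read genes, among them Rab6b, Crip2, Iscu, 2610301B20Rik, Dtymk, Eif3j2, Rpl13, Tnfaip8, Polr2e and Rab43. The remaining gene was Pnoc, the precursor of the neuropeptide nociceptin, with 92, 0, 0, 60 and 0 TPM. Rab43 and Tm2d1 were listed at 0 at every treated time, against 66 TPM at 0 min, which takes at least 1 read each.

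Pebp1 and Rac1 had the most reads. Pebp1, an inhibitor of Raf kinase, had 1818, 456, 985, 1394 and 1667 TPM, or 55, 4, 7, 9 and 10 reads. Its ratio at 60 min over 0 min was 0.918, with a 95% exact interval of 0.417 to 1.82 that covers counting error only, since reads amplified by PCR are not independent molecules. Rac1, a small GTPase that shapes the actin skeleton, had 893, 459, 563, 698 and 835 TPM, or 54, 8, 8, 9 and 10 reads, and a ratio of 0.935 (0.425 to 1.86). In TPM both were lowest at 5 min and nearly back to their 0 min share at 60 min. The reads at 5 and 60 min were 4 and 10 for Pebp1 and 8 and 10 for Rac1. No interval was computed for 5 min, and no recovery is read from these values. Rab6b, a Golgi GTPase of neurons, had the next most reads at 0 min and an uneven course of 381, 229, 281, 1551 and 0 TPM, or 23, 4, 4, 20 and 0 reads. Taf10, a subunit of the general transcription factor TFIID, had 27 reads at 60 min, against 20 at 0 min, which is a 6.82-fold higher TPM. Pithd1 had 10 reads at 60 min, against 8 at 0 min, and Ccdc25 had 5 reads at both times. These ratios compare 1 library with the library that chose the genes, and no call is made from them. With libraries of unequal depth, an unchanged number of reads is a 5.05-fold higher TPM at 60 min.

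**Figure D1:**
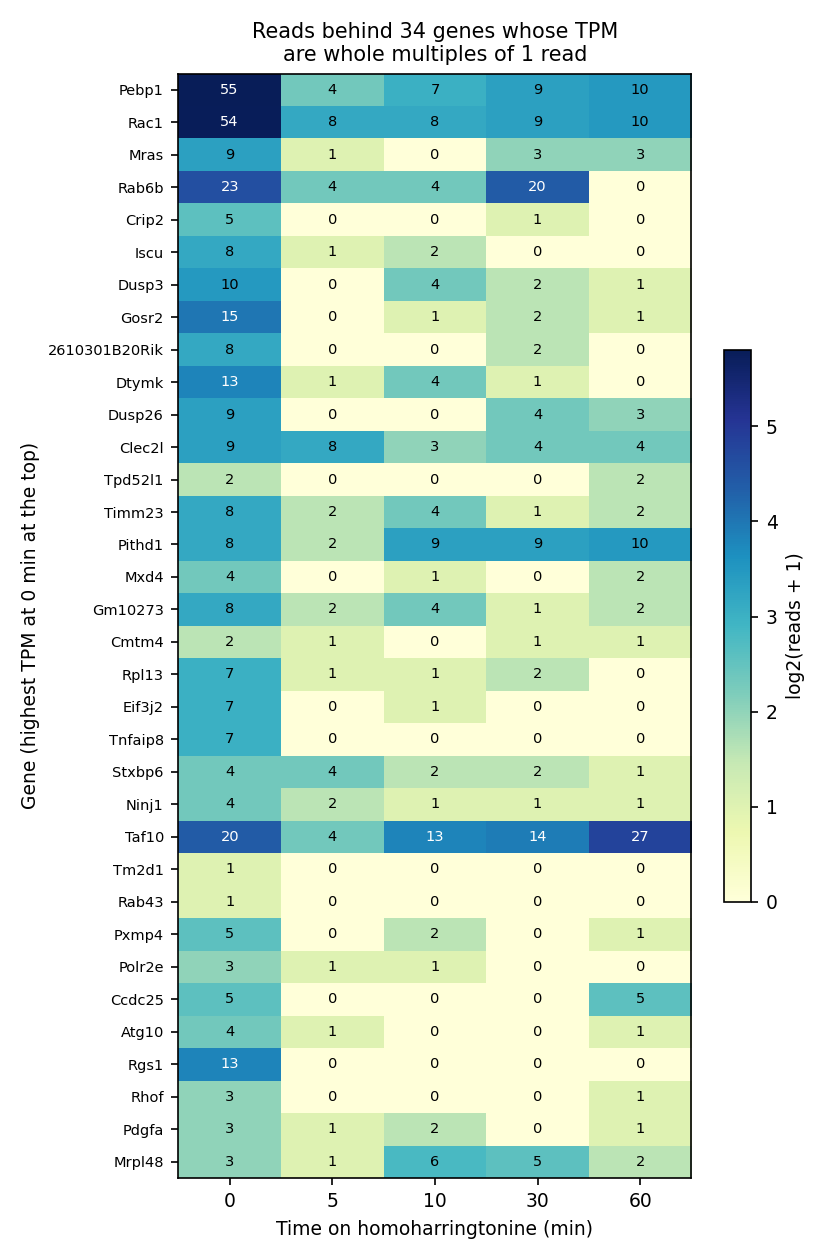
Fewest reads that give the TPM of 34 of the 35 genes whose values are whole multiples of 1 read, with genes down the page by TPM at 0 min and the 5 libraries across. Colour is log2(reads + 1) and the printed number is the reads; Pebp1 and Rac1 lead at 0 min with 55 and 54 reads, and most later cells hold 0 to 4.

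Some rows repeat another row. In all 5 libraries Timm23, a channel subunit of mitochondrial protein import, and the annotated pseudogene Gm10273 both had 132, 115, 281, 78 and 167 TPM. Dgcr6 and AC087064.3 both had 62, 32, 52, 74 and 54 TPM. Gm10031 (Csnk2a3 in the annotation) equalled Csnk2a1, a casein kinase 2 subunit, with 121, 96, 78, 80 and 87 TPM. AC127556.1 equalled the splicing factor gene Sf1 with 104, 121, 74, 53 and 74 TPM, and AC174648.1 equalled Rims1, a protein of the presynaptic active zone, with 55, 119, 169, 91 and 70 TPM. Tm2d1 and Rab43 share only 1 value above 0, which takes at least 1 read. The sources used here do not state how reads shared by near-identical genes were counted, so the levels of these pairs are uncertain.

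The 177 genes together held 3.58%, 3.43%, 4.56%, 5.30% and 5.32% of all TPM in order of time. Kxd1, a subunit of the BORC complex that positions lysosomes, alone held 1.39% at 60 min, against 0.194% at 0 min. Without Kxd1 the shares were 3.39%, 2.84%, 3.44%, 3.95% and 3.94%. Relative to 0 min the median log2 ratio of TPM + 1 over the 177 genes was -0.20, -0.11, 0.06 and 0.03 in the libraries of 5, 10, 30 and 60 min. Over the 3252 rows in both tables with at least 50 TPM at 0 min it was -0.21, -0.36, -0.23 and -0.24. The 177 genes also spread more widely, with quartiles of -0.46 and 0.52 at 60 min against -0.61 and 0.14 for the rows in both tables.

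At 5 min 46 of the 177 genes were at least 2-fold lower than at 0 min (26.0%) and 20 at least 2-fold higher (11.3%), where 11.1% and 5.85% of all rows with at least 50 TPM at 0 min passed the same folds. At 10 min 34 were lower and 30 higher, beside 13.7% and 5.68% of all rows. At 30 min 30 were lower and 33 higher, beside 8.15% and 3.23%. At 60 min 22 were lower (12.4%) and 28 higher (15.8%), beside 9.4% and 3.75%. Nothing about the genes is read from these shares, because the 0 min library chose them. Without the 35 whole-read genes, left out after the data were seen, 5.63% were lower at 60 min and 10.6% at 30 min. A value of 0 in at least 1 library occurred in 33 of the 177 genes, of which 25 are whole-read genes, and in 1.19% of all rows.

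**Figure D2:**
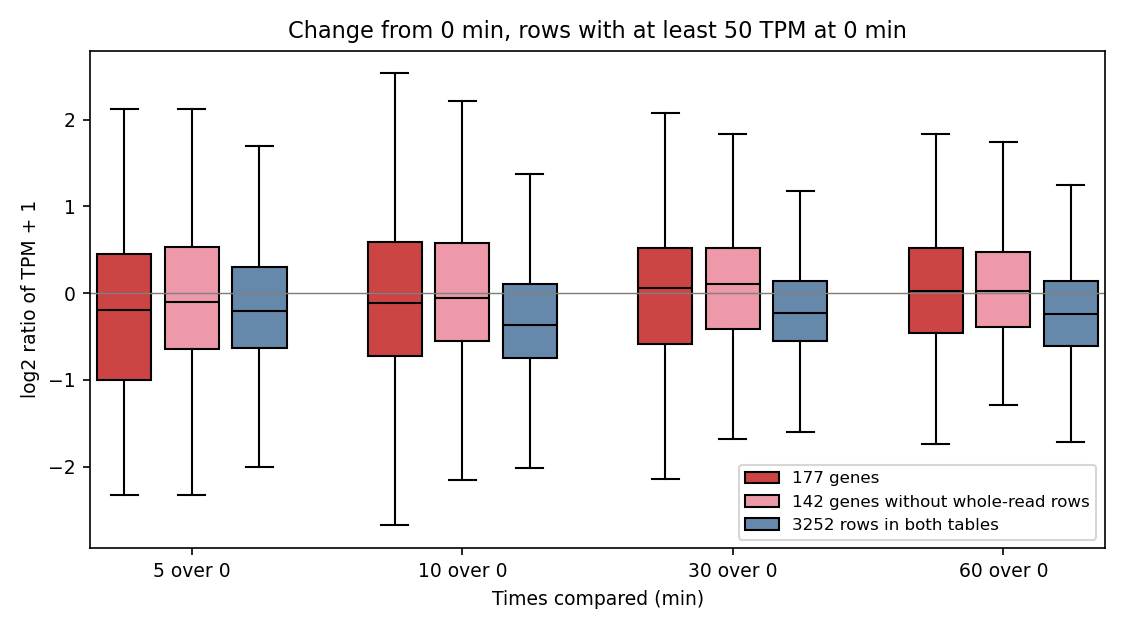
Log2 ratio of TPM + 1 at each time over 0 min for the 177 genes, for the 142 of them that are not whole-read genes, and for the 3252 rows in both tables with at least 50 TPM at 0 min. Boxes span the quartiles with the median as a line, whiskers reach 1.5 box lengths and points beyond are not drawn; the median of the 177 genes at 60 min is 0.03 and that of the rows in both tables -0.24.

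The comparison of 60 min with 5 min uses libraries that did not choose the genes. Of the 177 genes 42 were at least 2-fold higher at 60 min than at 5 min (23.7%) and 19 at least 2-fold lower (10.7%), while 7.19% and 14.7% of 8188 rows with a mean of at least 10 TPM passed these folds. These rows extend to lower levels than the 177 genes. With each library divided by its mitochondrial factor the balance turned, to 16.4% of the 177 genes higher and 19.8% lower. The factor is larger at 60 min than at 5 min, so this division lowers the ratio across all rows. Scaled shares of the 8188 rows were not computed, so nothing particular to the 177 genes is read from the turn. Unscaled, the median log2 ratio was 0.25 over the 177 genes and -0.15 over the 8188 rows. From 5 to 10 min 26 genes were higher and 5 lower, beside 3.63% and 4.51% of the 8188 rows. From 10 to 30 min 19 were higher and 16 lower, beside 4.21% and 8.13%. From 30 to 60 min 17 were higher and 17 lower, beside 3.83% and 3.24%. All 6 genes at the upper end were listed at 0 at 5 min, as were 8 others above 0 at 60 min, and all 6 at the lower end were listed at 0 at 60 min, so the pseudocount and the level at the other time set their order. Whole-read genes were 5 of the 6 highest (Tpd52l1, Mxd4, Ccdc25, Dusp26, Dusp3, and besides them the linker histone gene Hist1h1c) and 5 of the 6 lowest (Rab6b, Iscu, Polr2e, Rpl13, Dtymk, and besides them Cptp). Tpd52l1 for instance had 668 TPM at 60 min, which is 2 reads, against 0 TPM at 5 min.

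A slope on log2(minutes) over the 4 treated libraries was fitted for all 8188 rows with limma on log2(TPM + 1). No row passed a Benjamini-Hochberg adjusted p of 0.05 (0.0% of rows in either direction), and hence none of the 177 genes. At an unadjusted p under 0.05, 40 of the 177 had a slope above 0 (22.6%) and 17 below 0 (9.60%), beside 7.89% and 15.5% of all rows. Those rows extend to lower levels than the 177 genes. With a mean of at least 50 TPM, 34 of 159 genes had such a slope above 0 and 17 below 0. Of 3495 rows at that limit 408 were above 0 and 523 below 0. There 1 of the 159 genes passed the adjusted threshold downward and 0 upward, beside 5 and 3 of the 3495 rows. The median slope of all rows was -0.026 at the limit of 10 TPM and 0.012 at 50 TPM. With each library divided by its mitochondrial factor, 6 of the 177 passed the adjusted threshold upward and 14 downward, beside 0.403% and 12.8% of all rows. At an unadjusted p under 0.05 it was 19 upward and 39 downward, beside 2.17% and 34.6% of all rows. Those that rose under this scaling were Gm20695, Gm45713, Gm20390, Shisa5, Hist1h1c and Dusp26. Dusp26 had 0, 0, 4 and 3 reads at the treated times, and Hist1h1c was listed at 0 at 5 min. The pseudocount thus bears on the slopes of both. Those that fell included Map4, Adgrl1, Adgrb3, Rtn4 and Plppr3. With 1 library a time, the fit cannot separate scatter among libraries from curvature, and both fall into 2 residual degrees of freedom.

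Kxd1 had the largest level of the 177 genes at every treated time. Its TPM was 1943, 5916, 11243, 13516 and 13884 in order of time. Each library was higher than the one before it. Kxd1 ranked 3 of 18527 rows at every treated time, against 52 at 0 min, and at the treated times it held 0.592%, 1.12%, 1.35% and 1.39% of all TPM. The ratio at 60 min over 0 min was 7.15, which is 1.45 times the mitochondrial factor. The gene lies on chromosome 8 at 70513396 to 70523180 in GRCm38, with no other annotated gene in its span. The neighbouring gene Fkbp8 lies 4541 nt away. Its slope over the treated libraries was 0.31 log2 units per doubling of time (SE 0.082, limma adjusted p = 0.132), which missed the threshold.

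Other genes were also higher at later times. Nudt19, a hydrolase of the Nudix family, had 80, 301, 439, 443 and 515 TPM in time order. Ino80e, a subunit of the INO80 chromatin remodeller, had 118, 354, 459, 543 and 591 TPM, and its span overlaps Doc2a and Hirip3. Igfbp6, a secreted binding protein of insulin-like growth factors, had 58, 138, 195, 248 and 362 TPM. These 3 genes and Kxd1, with Gm20431, Gm26558 and Retreg2, were higher at every later time than at the time before, 7 of 177 (3.95%) beside 1.86% of all rows with at least 50 TPM at 0 min.

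Gm26558, a row that matched no annotated gene, had 50, 220, 547, 593 and 750 TPM, the largest ratio of the 177 genes at 60 min (15.0, or 3.05 times the mitochondrial factor). It stands at the 50 TPM limit, where the limit on the 0 min level cuts the range of genes. Scp2, sterol carrier protein 2, had 100, 318, 469, 567 and 558 TPM, and Lrrc58, a leucine-rich repeat protein, had 62, 181, 305, 381 and 379 TPM. Both were nearly level from 30 to 60 min. The span of Scp2 overlaps the microRNA gene Mir6397, and that of Lrrc58 overlaps a pseudogene.

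Shisa5, a membrane protein of the endoplasmic reticulum, had 95, 91, 291, 568 and 685 TPM. Taf10 had 81, 56, 224, 268 and 555 TPM, and its span overlaps Ilk, a kinase of cell adhesion. Unlike Kxd1, neither was higher at 5 min than at 0 min. In all, 13 genes (7.34%) had a ratio at 60 min above the mitochondrial factor. The share of all rows with at least 50 TPM at 0 min was 0.669%. For 3 of the 13 (Pithd1, Tpd52l1 and Ccdc25) the fewest reads at 60 min were 10, 2 and 5. The sources used here do not state whether counting used strand, and the spans of 76 of the 162 genes with a position overlap another annotated gene.

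**Figure D3:**
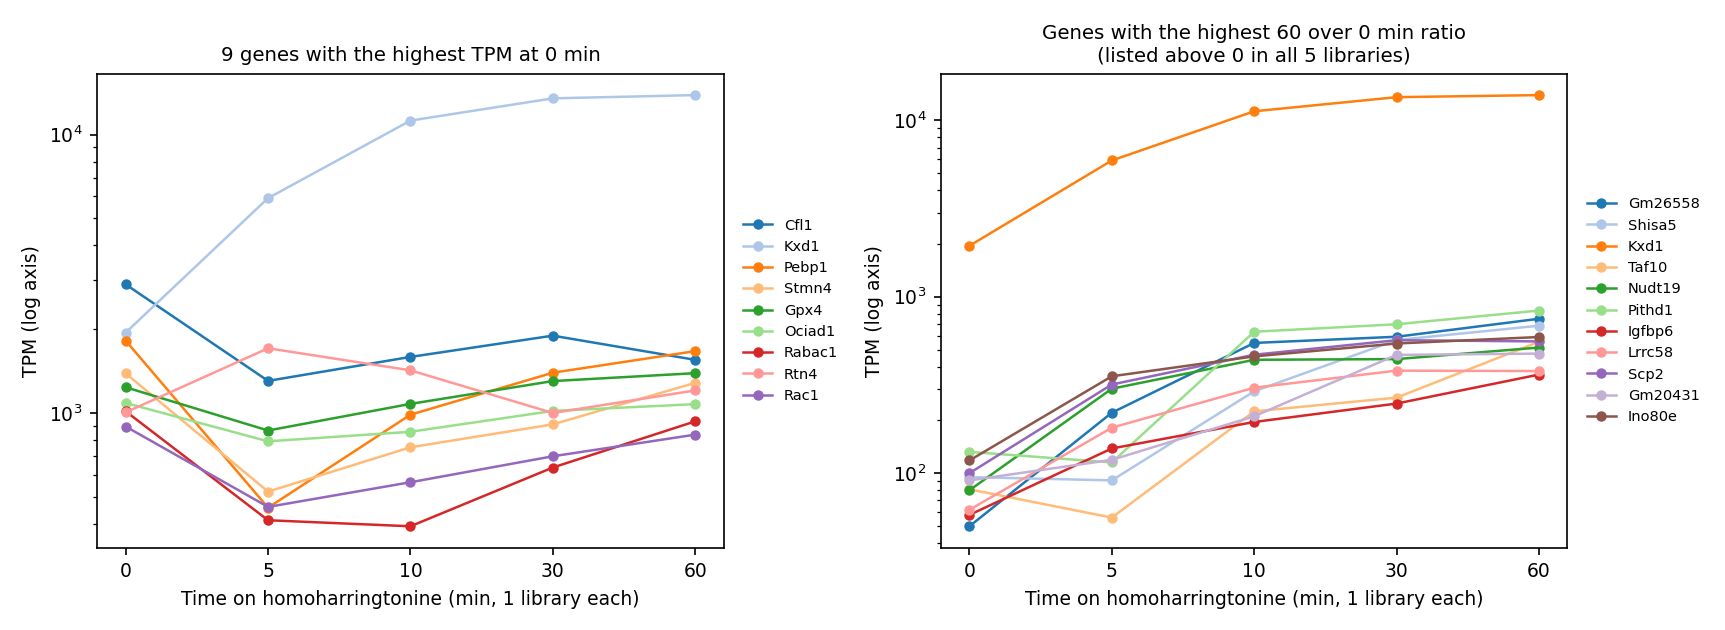
TPM on a log axis in the 5 libraries, spaced evenly on the horizontal axis, for the 9 genes with the highest level at 0 min (left) and for the genes with the highest ratio at 60 min over 0 min that were above 0 in every library (right). Each point is 1 library. Kxd1 has 13884 TPM at 60 min, against 1943 TPM at 0 min. Pebp1, Stmn4, Rabac1 and Rac1 have a lower TPM at 5 min than at 0 min and a higher one again at 60 min. The fewest reads behind the treated values are 4 to 10 for Pebp1 and 8 to 10 for Rac1.

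Of the 10 genes with the highest level at 0 min, 8 were lowest in the 5 or 10 min library. Ranking by the 0 min level favours lower values later, and the share of all rows lowest at these times was not computed. Nothing is read from this count. Cfl1 had 2897, 1303, 1589, 1895 and 1551 TPM, so that every treated library was below 0 min. Stmn4, a stathmin that binds tubulin, had 1386, 521, 752, 909 and 1282 TPM. Rabac1, an acceptor of prenylated Rab proteins, had 1013, 411, 391, 636 and 932 TPM. Stmn4 and Rabac1 were thus near their 0 min share again at 60 min.

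Gpx4, the selenoenzyme that reduces lipid peroxides in membranes, had 1236, 864, 1077, 1301 and 1389 TPM. Ociad1 had 1085, 790, 855, 1016 and 1075 TPM. In all, 80 of the 177 genes (45.2%) were lower at 5 min than at 0 min and higher at 60 min than at 5 min, beside 39.1% of all rows with at least 50 TPM at 0 min, which is near that background. Olfm1, a secreted protein of neurons, had 611, 567, 686, 828 and 1042 TPM and was highest at 60 min.

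A different course, with 5 and 10 min both above 0, 30 and 60 min, appeared in 21 of the 177 genes (11.9%), again near the 12.7% of all rows with at least 50 TPM at 0 min. The role groups given here were formed after the names and values were seen. Map4, a microtubule-associated protein, had 335, 959, 534, 216 and 165 TPM, highest at 5 min and lower at each time after it. Its slope was -0.73 log2 units per doubling of time (SE 0.069, limma adjusted p = 0.126). Rtn4, which shapes the endoplasmic reticulum and holds the neurite inhibitor Nogo, had 1004, 1707, 1422, 999 and 1204 TPM. Scn2a, the pore subunit of a neuronal sodium channel, had 128, 214, 243, 156 and 145 TPM, whereas Scn3b, a small beta subunit of such channels, had 339, 266, 299, 334 and 254 TPM. The pore subunit was above its 0 min level in all 4 treated libraries and the beta subunit in none.

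The adhesion receptors, surface proteins that join long extracellular parts to a G protein-coupled core, differed among themselves. Adgrl1, a latrophilin of the synapse, had 71, 253, 191, 109 and 110 TPM. Adgrl3, a second latrophilin, had 61, 143, 190, 73 and 68 TPM. Adgrb3, a receptor of complement-like C1q proteins at synapses, had 64, 154, 169, 72 and 78 TPM. All 3 were highest at 5 or 10 min, and at 30 and 60 min they lay between 0 min and those peaks.

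Adgrb1, a receptor of the same subfamily as Adgrb3, had 131, 220, 204, 188 and 179 TPM. Adgrg1, a receptor of cortical development that binds collagen III, had 255, 201, 215, 79 and 139 TPM, below 0 min in every treated library. The median log2 ratio of the 5 receptors was 1.22, 1.39, 0.26 and 0.28 in time order, beside medians over all rows with at least 50 TPM at 0 min of -0.20, -0.35, -0.22 and -0.23. Of the 5, none was at least 2-fold higher or lower at 60 min.

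The lipid phosphate phosphatases remove phosphate from lipids such as lysophosphatidic acid, and the plasticity-related proteins are their neuronal relatives. Plpp3 had 487, 312, 285, 229 and 263 TPM, below 0 min throughout. Plpp1 had 57, 50, 48, 68 and 43 TPM, and Plpp7 had 62, 49, 46, 56 and 41 TPM. Among the neuronal relatives Plppr4 had 287, 396, 317, 340 and 403 TPM and Plppr5 had 90, 131, 157, 130 and 128 TPM, above 0 min in all treated libraries. Plppr3 had 66, 134, 142, 86 and 70 TPM, and Plppr2 was nearly flat at 180, 173, 176, 181 and 168 TPM. The 3 Plpp genes were thus below their 0 min level at 60 min and 3 of the 4 neuronal relatives above it, Plppr3 only by 70 against 66 TPM. The median log2 ratio over all rows with at least 50 TPM at 0 min was -0.23. The share of those rows below 0 min was not computed, and nothing is read from these counts.

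The band 4.1 proteins link spectrin and actin to the membrane. Epb41l3 had 184, 422, 340, 305 and 391 TPM, at least 2-fold higher at 60 min than at 0 min. Epb41l1 had 118, 191, 130, 122 and 126 TPM, and Epb41l2 had 83, 67, 34, 34 and 44 TPM. The 3 paralogues did not share a course.

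**Figure D4:**
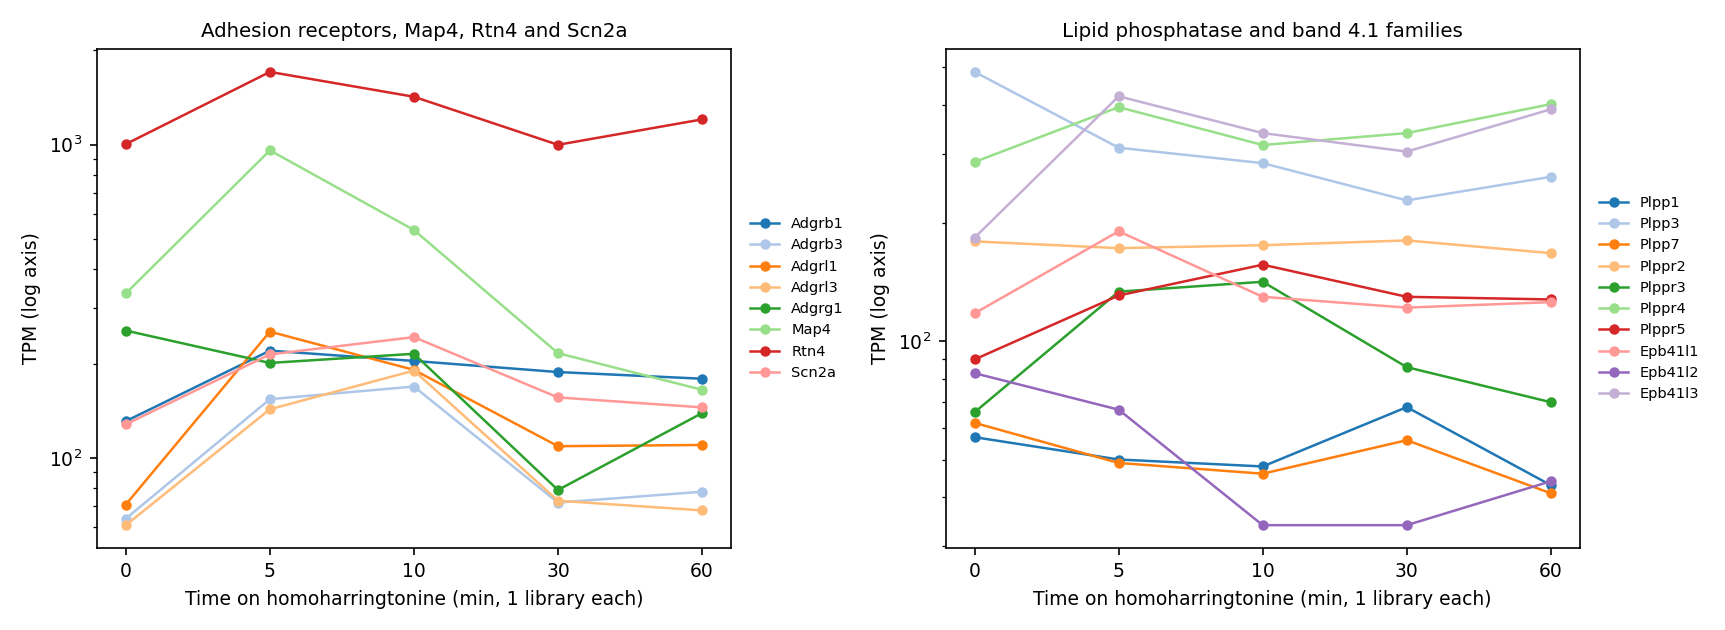
TPM on a log axis in the 5 libraries, spaced evenly, for adhesion receptors, Map4, Rtn4 and Scn2a (left) and for the lipid phosphatase and band 4.1 families (right). Each point is 1 library; Adgrl1, Adgrl3, Adgrb3 and Map4 peak at 5 or 10 min, Plppr2 stays between 168 and 181 TPM, and Plpp3 and Epb41l2 are below 0 min at every later time.

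Ribosomal proteins among the 177 genes were few and uneven. Rack1, a scaffold on the small subunit, had 237, 187, 240, 229 and 245 TPM, and the annotated pseudogene Rpl10-ps3 had 220, 183, 157, 163 and 256 TPM. Rpl13 had 116, 57, 70, 155 and 0 TPM, which is 7, 1, 1, 2 and 0 reads. Rack1 thus lay between 187 and 245 TPM throughout, while the fewest reads that give the treated values of Rpl13 were 0 to 2.

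Of 10 chromatin and transcription genes 4 were at least 2-fold higher at 60 min than at 0 min and 1 at least 2-fold lower, beside 3.75% and 9.4% of all rows with at least 50 TPM at 0 min; the group was formed after its values were seen, and nothing is read from its count. The 4 were Ino80e, Taf10, Hist1h1c (155, 0, 55, 184 and 330 TPM) and the whole-read gene Mxd4. Kmt5b, a methyltransferase of histone H4, had 57, 245, 241, 332 and 71 TPM, high from 5 to 30 min and near its 0 min level at 60 min. Nsd2, a methyltransferase of histone H3, had 106, 65, 82, 70 and 96 TPM and was below 0 min in all treated libraries. Polr2e, an RNA polymerase subunit, was the gene at least 2-fold lower, with 3 reads at 0 min.

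The 4 proteins that shape the endoplasmic reticulum, Rtn4, Retreg1, Retreg2 and Lnpk, were all above 0 min at 60 min, with a median log2 ratio of 0.32 beside -0.23 over all rows with at least 50 TPM at 0 min. Retreg2, a reticulon-like receptor of autophagy, had 98, 130, 151, 164 and 166 TPM. Among 9 genes of lipid synthesis and transfer, beside the shares of 3.75% and 9.4% of all rows, 1 was at least 2-fold higher at 60 min (Scp2) and 1 at least 2-fold lower, Cptp, a ceramide phosphate transfer protein (51, 37, 23, 0 and 0 TPM). Cers1, the main ceramide synthase of neurons, was nearly level with 157, 154, 179, 188 and 183 TPM. Homer1, a scaffold of the postsynapse, had 180, 94, 104, 118 and 131 TPM, lowest at 5 min.

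Small GTPases and the regulators of G proteins showed how unevenly the rows are founded. Of 5 GTPases (Rac1, Mras, Rab6b, Rab43 and Rhof) all are whole-read genes, and Rhof, an actin regulator, had 50, 0, 0, 0 and 84 TPM, which is 1 read at 60 min, against 3 at 0 min. Grk2, the kinase that turns off G protein-coupled receptors, had 108, 95, 105, 126 and 136 TPM. Rgs19, which speeds the shutdown of G proteins, had 53, 56, 42, 76 and 96 TPM, and Ric8a, a chaperone of G protein alpha subunits, had 50, 41, 29, 57 and 38 TPM. None of these 3 regulators was at least 2-fold higher or lower at 60 min. Rgs1, of the same family as Rgs19 and known from immune cells, was listed at 0 in every treated library, against 60 TPM or 13 reads at 0 min. Its 95% exact interval for the ratio at 60 min over 0 min was 0 to 1.66, which holds 1. The microglial receptor gene Csf1r, with 72, 73, 22, 15 and 14 TPM, was also lower from 10 min on; whether the 2 go together was not tested.

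Of 8 mitochondrial proteins 2 were at least 2-fold higher at 60 min than at 0 min and 1 at least 2-fold lower, with a median log2 ratio of 0.51. Over all rows with at least 50 TPM at 0 min the shares were 3.75% and 9.4% and the median was -0.23. Timm29, a subunit of the carrier import machinery, had 78, 90, 170, 166 and 193 TPM and was above 0 min at every treated time. Mrpl48, a protein of the large mitochondrial ribosomal subunit, had 50, 57, 422, 388 and 167 TPM, and its 60 min value is 2 reads. Maip1, which assists assembly of the calcium uniporter, had 83, 106, 127, 109 and 134 TPM. Iscu, the scaffold for iron-sulphur clusters, had 265, 115, 281, 0 and 0 TPM, or 8, 1, 2, 0 and 0 reads, and was the gene at least 2-fold lower. Mipep, a peptidase of imported proteins, had 66, 27, 14, 310 and 111 TPM, a course with no order in time.

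The 4 antioxidant and selenium genes had a median log2 ratio at 60 min of 0.02, beside the same -0.23. Besides Gpx4, Selenop, the secreted carrier of selenium, had 142, 157, 137, 159 and 106 TPM, Msra, a reductase of oxidised methionine, had 61, 30, 49, 74 and 65 TPM, and Mgst1, a membrane glutathione transferase, had 90, 42, 37, 73 and 87 TPM. Gpx4, Msra and Mgst1 were lowest at 5 or 10 min, and Selenop at 60 min. Hacd3, an enzyme of very long chain fatty acid synthesis, had 363, 315, 289, 383 and 322 TPM, and Selenoi, an ethanolamine phosphotransferase, had 62, 86, 82, 80 and 90 TPM.

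Among cell adhesion and junction genes Nectin1 had 78, 73, 62, 88 and 89 TPM and Nectin3 had 57, 102, 91, 234 and 119 TPM; nectins are adhesion molecules of the immunoglobulin family that join cells at junctions. Afdn, the afadin protein that anchors nectins to actin, had 75, 78, 110, 55 and 30 TPM. Nectin3 was thus above its 0 min level at every treated time and Afdn below it at 30 and 60 min. Tcaf1, a factor that modulates a cold-sensing ion channel, had 253, 461, 249, 167 and 153 TPM, and Clcn4, a chloride and proton exchanger, had 142, 205, 150, 149 and 153 TPM. Both were highest at 5 min.

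The 12 rows that matched no annotated gene and equalled no other row had a median log2 ratio of 0.49, 0.33, 0.33 and 0.53 at the 4 treated times, and 5 of them were at least 2-fold higher at 60 min. Over all rows with at least 50 TPM at 0 min the medians were -0.20, -0.35, -0.22 and -0.23, and 3.75% were at least 2-fold higher at 60 min. Gm20390 had 533, 427, 775, 1217 and 1673 TPM, Gm45713 had 167, 163, 259, 447 and 598 TPM and Gm20431 had 91, 119, 210, 468 and 476 TPM. All 3 were highest at 60 min. Their slopes over the treated libraries were 0.53 (SE 0.062), 0.52 (SE 0.060) and 0.58 (SE 0.090) log2 units per doubling of time, each with a limma adjusted p of 0.126. The annotated gene Gm13889 had 278, 558, 984, 997 and 929 TPM, level from 10 min on. Cinp, a partner of a cell cycle kinase, had 78, 272, 1005, 3 and 66 TPM, the widest swing between neighbouring times in a gene with a value above 0 in every library.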

How the data were processed

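Ribosome footprints of 5 libraries were measured, 1 per time on homoharringtonine. The TPM values that the authors deposited were rounded to whole numbers and are handled as a score on a linear scale; the names of the deposited data give RSEM and coding sequences without their ends. The authors' deposited count table holds estimated counts listed as whole numbers, coding lengths and a ratio (fold) of each time to 0 min; the counts served only to find what 1 read is worth, and the deposited ratio was not used for results. The build mm10 and the tools TopHat2 2.0.9, Bowtie2 2.1.0, SAMtools 0.0.19, Trimmomatic 0.32 and cutadapt 1.7.1 are named, without roles or settings, per the submitters' processing notes.

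Ratios are on the scale of log2(TPM + 1), which understates changes of low genes, except where a plain ratio of TPM is given. The slope test was limma 3.58.1 in R 4.3.3 (lmFit, eBayes with trend) over rows with a mean of at least 10 TPM, with Benjamini-Hochberg adjustment, and was tested on simulated data. The genes, lists and tests were chosen with earlier results of these data known. Genes named are the 10 highest at 0 min, the 12 highest and 12 lowest at 60 min over 0 min, the 6 highest and 6 lowest at 60 min over 5 min, the 3 on each side of the 50 TPM limit and any called by the slope test; role groups and further names were chosen after their values were seen. A planned comparison of protein lengths was not run, as the table it needs was not used here. P-values rest on departures of single libraries from a straight line on log2(minutes). These hold both scatter and curvature, and eBayes draws their variance toward that of other rows. Some genes the rule would name are not reported here.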

Additional observations from a re-analysis of the deposited data

How the results depend on the processing

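Of 246 values recomputed under other settings, 187 stayed close and 59 moved. The median ratio changed sign at 30 and 60 min under mitochondrial scaling and at 5 and 10 min under scaling to the rows in both tables. Dividing each library by its mitochondrial factor put the median log2 ratio at -1.94, -1.87, -1.94 and -2.22 at 5, 10, 30 and 60 min. At these times 83.6%, 80.2%, 81.4% and 88.1% of genes were at least 2-fold lower and 0.0%, 1.69%, 0.565% and 0.565% higher. The drop is not particular to the 177 genes, whose median scaled ratio of TPM was 0.25, 0.26, 0.25 and 0.21. Over all 3436 rows with at least 50 TPM at 0 min it was 0.25, 0.22, 0.21 and 0.17. Scaled shares past 2-fold were not computed over all rows. Of the 177 genes 19.8% were lower and 16.4% higher at 60 min than at 5 min, against 10.7% and 23.7% unscaled. Under this scaling limma called 14 genes lower and 6 higher (1045 and 33 of 8188 rows). Unscaled, with a mean of at least 50 TPM, it called 1 of 159 genes lower, and 5 lower and 3 higher of 3495 rows. Every other alternative fit, including leaving out each library, called 0 lower and 0 higher. Scaling to the median of the rows in both tables gave medians of 0.0088, 0.25, 0.29 and 0.27. With a limit of 100 TPM (85 genes) 10.6% were higher at 10 min.

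The share of TPM at 0, 5, 10, 30 and 60 min was 4.03%, 3.99%, 5.25%, 6.01% and 6.06% with a limit of 25 TPM (304 genes) and 2.95%, 2.72%, 3.58%, 4.29% and 4.30% with 100 TPM. It was 3.62%, 3.56%, 4.77%, 5.52% and 5.57% with mitochondrially encoded rows and Mbp left out of the total. Without whole-read genes, an alternative chosen after seeing the data, it was 2.83%, 3.09%, 3.99%, 4.43% and 4.49%, and 10.6% and 5.63% of genes were lower at 30 and 60 min. Without Kxd1, also chosen after seeing the data, it was 3.39%, 2.84%, 3.44%, 3.95% and 3.94%. The causes of these moves were not tested. The comparison of protein lengths was not run. No paired analysis was possible because each time is 1 library. Depth limits the whole-read genes most, where 1 read is worth up to 334 TPM at 60 min.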
